A study of Mus musculus with 4 samples.

Results

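The genes described here are the 387 autosomal genes that ranked among the top 1000 by acetylation of histone H3 at lysine 9 (H3K9ac) in leukaemic bone marrow of mice without Mx-Cre and outside the top 1000 in marrow of mice with Mx-Cre. They were chosen by their deposited H3K9ac values in both libraries. They are 387 of 9398 autosomal genes (4.12%) in a table of 9615 genes, and 38.7% of the top 1000 of the Cre-negative library. Their levels and their differences are therefore a description that supports nothing further. Ties were broken by gene identifier.

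H3K9ac was measured by chromatin immunoprecipitation and sequencing, with 1 library per genotype. The library called WT by the submitters came from Gfi1b fl/fl mice with the NUP98/HOXD13 transgene and no Mx-Cre (MxCre wt), and the library called tg from Gfi1b fl/fl, NUP98/HOXD13 transgenic mice with Mx-Cre (MxCre tg). Both therefore carry the floxed Gfi1b alleles and the leukaemia transgene. Erythrocytes were lysed before the cells were crosslinked in 1% formaldehyde and sonicated for 20 min. The labels give neither the number, age nor sex of the animals behind a library, nor whether Cre was induced. Rabbit IgG libraries of both genotypes were not analysed here.

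H3K9ac is placed by histone acetyltransferases such as those of the SAGA and ATAC complexes, removed by histone deacetylases, and concentrated around the starts of active genes. GFI1B is a repressor of blood cell genes that recruits the demethylase LSD1 and histone deacetylases, and Mx-Cre is a recombinase driven by an interferon-responsive promoter that acts in many cell types. The fusion of NUP98 with HOXD13 gives mice a myelodysplastic syndrome that can turn into leukaemia.

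Promoters of 5 members are shown, because they include CpG-poor and CpG-rich starts and hold examples of motifs searched for below. They are the 250 bases before the RefSeq start of each gene in GRCm38.p6, written 5' to 3' along the gene. Capitals mark the matches, on either strand, of the motifs searched: NF-kB (GGGANTTCC) in Tifab, C/EBP (TTGCNNAA) followed by NF-kB in Slfn2, 2 overlapping matches of the interferon response motif (a GAAA run, any 2 bases, and a GAAA run) in Bst2, PU.1 (GAGGAAGT) followed by NF-kB in Rel, and the cyclic AMP response element (CRE, TGACGTCA) in Dusp1. Tifab lies on the minus strand at chr13:56178886-56179135, Slfn2 on the plus strand at chr11:83064862-83065111, Bst2 on the minus strand at chr8:71537473-71537722, Rel on the minus strand at chr11:23770970-23771219 and Dusp1 on the minus strand at chr17:26508473-26508722.
Tifab: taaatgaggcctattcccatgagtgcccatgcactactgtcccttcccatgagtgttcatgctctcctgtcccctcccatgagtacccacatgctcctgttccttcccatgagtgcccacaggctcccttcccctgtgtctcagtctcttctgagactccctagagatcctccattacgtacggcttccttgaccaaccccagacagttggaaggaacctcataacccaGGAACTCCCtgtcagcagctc
Slfn2: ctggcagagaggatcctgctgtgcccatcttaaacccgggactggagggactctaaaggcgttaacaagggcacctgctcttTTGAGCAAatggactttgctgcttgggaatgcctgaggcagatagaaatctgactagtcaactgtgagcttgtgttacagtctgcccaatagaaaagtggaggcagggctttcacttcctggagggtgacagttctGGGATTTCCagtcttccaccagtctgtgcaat
Bst2: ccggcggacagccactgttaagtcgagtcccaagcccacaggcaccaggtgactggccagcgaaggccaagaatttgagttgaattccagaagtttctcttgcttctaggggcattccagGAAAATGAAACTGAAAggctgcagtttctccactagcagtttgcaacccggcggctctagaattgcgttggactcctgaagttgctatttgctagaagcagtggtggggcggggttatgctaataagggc
Rel: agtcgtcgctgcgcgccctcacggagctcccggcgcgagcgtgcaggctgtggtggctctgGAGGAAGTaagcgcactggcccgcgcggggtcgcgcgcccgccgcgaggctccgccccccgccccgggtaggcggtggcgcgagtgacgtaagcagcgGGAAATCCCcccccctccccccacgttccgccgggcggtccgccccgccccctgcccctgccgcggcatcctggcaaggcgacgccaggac
Dusp1: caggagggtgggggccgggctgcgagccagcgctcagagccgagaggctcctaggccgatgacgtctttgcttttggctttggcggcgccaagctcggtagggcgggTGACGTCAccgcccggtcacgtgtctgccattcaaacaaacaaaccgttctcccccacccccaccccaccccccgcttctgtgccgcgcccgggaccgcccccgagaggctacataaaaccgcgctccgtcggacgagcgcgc
The 300-base windows that reach 50 bases past the start held 2 CpG dinucleotides in Tifab, 2 in Slfn2, 11 in Bst2, 31 in Dusp1 and 42 in Rel. The match nearest to a start was that of Tifab, which began 21 bases before it, followed by the NF-kB match of Slfn2 at 32 bases, while the C/EBP match of Slfn2 began 168 bases before its start. In Rel the NF-kB match began 91 bases and the PU.1 match 189 bases before the start, and in Dusp1 the CRE match began 143 bases before it. A match is a run of letters and not a measured binding site, and the probes on which H3K9ac was counted have no positions in the table, so they need not lie in these windows.

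The deposited value of a gene is a mean of log2 values over its probes, and reads per probe could be recovered from it (387 of 387 members in both libraries). For genes with several probes the counts are given from low to high within each library. Their order therefore does not pair a WT probe with a tg probe. From the spacing of the deposited values, 1 read is worth 3.23 scaled reads in WT and 6.11 in tg. If scaled reads are reads per 1000000 of a total, that total was 309649 in WT and 163712 in tg. The totals are derived and not stated by the submitters. Whether they count all reads of a library or only those at probes is not given, and the folds below are scaled to them. The limit that a count of 0 leaves is 9.69 scaled reads for WT and 18.3 for tg (3 reads each). Folds compare WT with tg and carry exact 95% binomial intervals for the ratio of the 2 read counts. Such intervals and limits hold counting error alone. The reads carry no molecular identifiers and so need not stem from independent molecules, and with 1 library per genotype no difference has a replicate check or a test. Gfi1b itself had 12 WT reads and 108 tg reads over 4 probes. Since probe positions are unknown, this does not check its deletion. Fewer acetylated cells of a type and less acetylation per cell cannot be told apart in such bulk samples.

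Members lay between 165 and 1324 scaled reads in WT, with a median of 203, and between 5.50 and 159 in tg, with a median of 116. In reads this was a median of 64 in WT (52 to 410) and of 20 in tg (0 to 65). The median 1-probe autosomal gene had 22 WT reads and 12 tg reads. The members were thus well covered in WT, while their tg levels often rested on few reads: 1 member had 0 reads and 18 had 1 to 5.

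**Figure D1:**
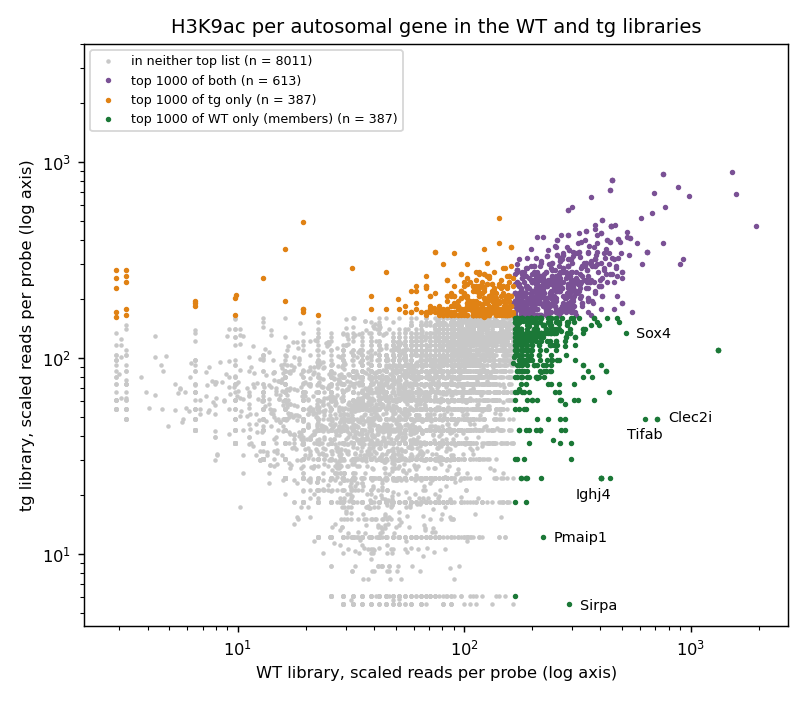
Deposited level of each autosomal gene as scaled reads per probe, WT on the horizontal and tg on the vertical log axis, coloured by class; 0 reads stand as 0.9 of a read. The 387 members (green) fill the lower right corner that the rule cuts out, from Sirpa, with 0 tg reads, up to genes just under the tg limit.

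The difference of the deposited log2 values, tg minus WT, had a median of -0.88 over the members and ranged from -5.72 to -0.08, with quartiles of -1.40 and -0.57. The same median was 0.045 over all autosomal genes, -0.36 over the top 1000 of WT and -0.08 over the 613 genes at the top of both. At least 2-fold lower in tg were 167 members (43.2%), against 15.6% of all autosomal genes and 18% of the top 1000 of WT. At least 4-fold lower were 60 members (15.5%, background 5.44%) and at least 8-fold lower 19. All of these shares follow in part from the rule, and nothing is read from them.

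Reads at the members were not confined to Cre-negative marrow, since all but 1 had tg reads. No IgG background was compared, so a few tg reads cannot be told from background. In 102 members the difference was under 1.5-fold, and in 152 the counting interval of the fold included 1. It lay wholly above 1 in 235 and wholly above 2 in 63. The rule chose the members by these same reads, so intervals above 1 follow in part from it, also in the lists below. In the tg library 117 members ranked 1001 to 1500 and a further 77 ranked 1501 to 2000, so many missed the tg list by little. Another 75 ranked 2001 to 3000, 60 ranked 3001 to 4699 and 58 lay in the lower part of the table, from rank 4700 to 9398.

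**Figure D2:**
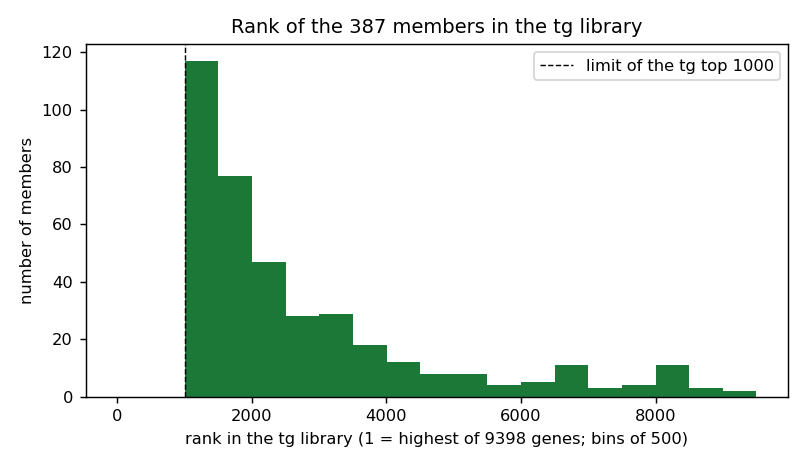
Number of members by their rank in the tg library, in bins of 500 ranks, with the limit of the tg top 1000 as a dashed line. The first bin, with 117 members, is the fullest, and 58 members lie from rank 4700 on.

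At the WT limit, 51 reads (165 scaled reads) were shared by 32 genes, of which 1 fell inside by its identifier. Just inside stood Hoxb7, Ifi27l2a (52 reads in WT, 5 in tg) and Rnf103 (52 and 22). Just outside stood Pih1d1 (51 and 21), Canx (51 and 26) and Irf1 (51 and 4), the interferon regulatory factor that would otherwise have joined the members described below. At the tg limit, Hbp1 (68 and 26), Ranbp2 (132 and 26) and Srp19 (55 and 26) stood just inside the set, and Pdzd8 (65 and 27), Arfgef1 (64 and 27) and Morf4l1 (97 and 27) just outside. A single read in the tg library thus separated members from genes at the top of both.

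The 387 members rested on 334 distinct sets of values, because 102 (26.4%) shared their probe with a neighbour. The share was 37.2% among genes at the top of both libraries and 16.2% over all autosomal genes. Of the members 369 had 1 probe and 18 had 2, and 95.3% with 1 probe compares with 77.2% of all autosomal genes and 98.0% of the genes at the top of both. A mean of log2 values can rank a gene with strong and weak probes low: Irf8, the regulator of monocyte and dendritic cell fate, had 407 WT reads and 29 tg reads over 4 probes and was no member. Gene models without a name made up 60 members, leaving 327 named genes. Chromosome 12 held the highest share of members (24 of 346 genes, 6.94%), which includes the members that share probes at the heavy chain locus described next. Chromosome 7 held the lowest (12 of 703, 1.71%), and 57 members had a member with other values within 100 kb.

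The highest member level in WT stood at the immunoglobulin heavy chain locus. The gene models AC073553.1 to AC073553.3 on chromosome 12, beside the joining segments, share 1 probe with 410 reads in WT and 18 in tg, 12-fold (7.52 to 20.5). The joining segments of the antibody heavy chain, Ighj1 to Ighj4, share another probe with 124 reads in WT and 4 in tg, 16.4-fold (6.24 to 61.1). These 2 probes account for 7 members. No other of the 12 B cell genes with a row was a member: the B cell factor Pax5 had 13 WT reads and 6 tg reads, and the surrogate light chain gene Vpreb1 (33 and 30) and Cd24a (44 and 85) were at the top of tg only. Over this list 5 genes were lower by at least 2-fold and 4 at least 2-fold higher in tg, against 15.6% and 16.5% of all autosomal genes.

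Next came Clec2i, on chromosome 6 at 128887588 to 128898167, which encodes a C-type lectin-related ligand of natural killer cell receptors. It had 220 WT reads and 8 tg reads (710 and 48.9 scaled reads), 14.5-fold (7.25 to 34.1), on a probe shared with the gene model BC035044. Tifab, on chromosome 13 at 56173703 to 56178885, encodes an inhibitor of TIFA and TRAF6 signalling. It had 195 WT reads and 8 tg reads (630 and 48.9 scaled reads), 12.9-fold (6.41 to 30.3). These genes ranked 15 and 22 in WT and 5983 and 6102 in tg, so both fell from near the top of the table to its lower part. Tifa, the activator that Tifab inhibits, was also a member, with 79 reads in WT and 18 in tg, 2.32-fold (1.38 to 4.12).

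Sirpa, on chromosome 2 at 129592835 to 129632228, encodes the inhibitory receptor of myeloid cells that binds CD47. It had 90 WT reads and 0 tg reads, which puts WT at least 15.9-fold higher against a floor of 3 tg reads. The counting interval starts at 12.6, because it also holds the error of the WT reads. Mpeg1, the gene of the macrophage pore-forming protein perforin-2, had 52 and 143 reads at its probes in WT and 7 and 13 in tg, 5.15-fold (3.25 to 8.63). With Tifab these were 3 members among the 17 monocyte and macrophage genes with a row (17.6%, background 4.12%), and no gene of the list was at the top of tg only. With top lists of 2000 there were 5 members (29.4%, where 7.64% of all autosomal genes were members). The list as a whole had 10 genes at least 2-fold lower in tg and 1 higher (15.6% and 16.5% of all autosomal genes), with a median difference of -1.67. Among its genes that were no members, Ly86 had 83 WT reads and 2 tg reads, and Ms4a6c had 47 and 2, whereas Csf1r, the receptor of the macrophage growth factor, had 4 and 9.

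None of the 11 neutrophil granule and maturation genes with a row was a member, although 7 were at least 2-fold lower in tg (background 15.6%). Their levels in WT were modest: the azurophil granule enzyme Mpo had 31 WT reads and 1 tg reads over 2 probes, and the granulocyte factor Cebpa had 15 and 1. Of the 24 erythroid genes none was a member either, and 4 were at the top of tg only (Klf1, Ppox, Car2 and Epor). At least 2-fold higher in tg were 21 of the 24, against 16.5% of all autosomal genes. Tfrc, the transferrin receptor, was the erythroid gene at the top of WT and stood at the top of both. Dendritic cell genes gave 1 member of 10 (Bst2) and megakaryocyte genes 1 of 7, Plek, a protein kinase C substrate of platelets and leukocytes, with 83 reads in WT and 10 in tg. No member was among the T and natural killer cell genes (4 with a row), the eosinophil, basophil and mast cell genes (3), the stromal and endothelial genes (3) or the genes of liver, neuron, muscle and testis (2 of the 23 looked for). What the different lineage levels of the libraries contribute to the members was not tested.

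**Figure D3:**
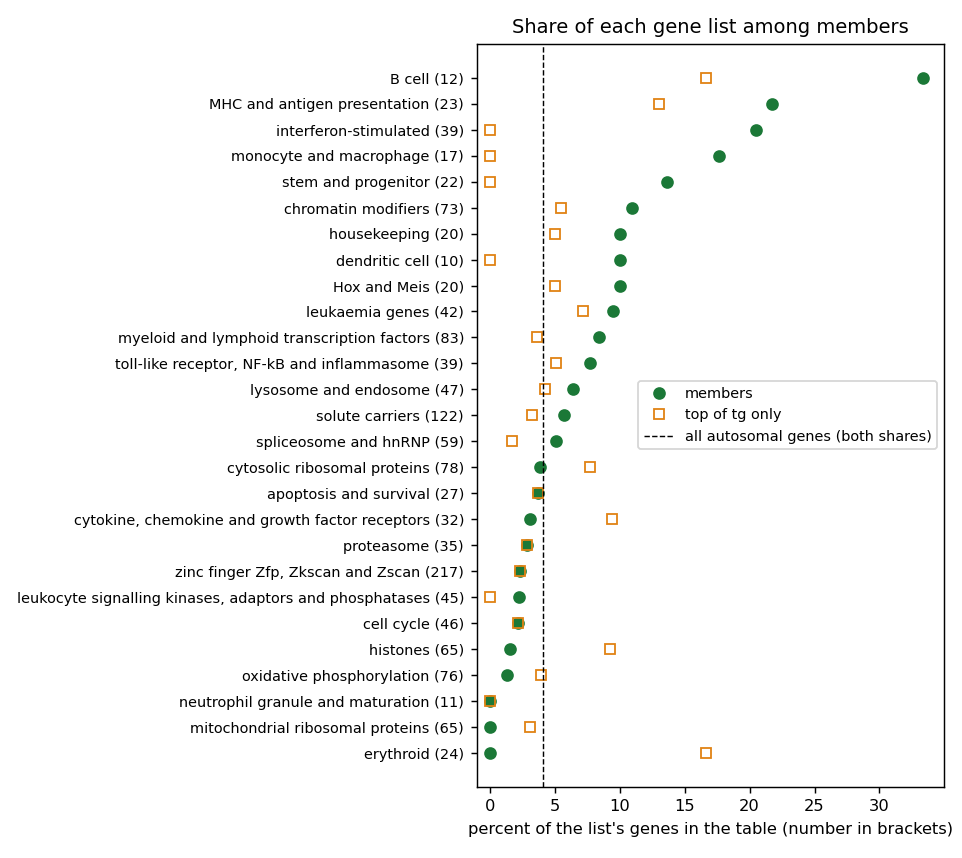
Percent of the genes of each list with a row that were members (green dots) or at the top of tg only (orange squares). Shown are those of the first 33 lists with at least 10 genes with a row, except 1 list. The 10 lists added after values were seen are not shown. The dashed line marks the share over all autosomal genes, 4.12% for both. Interferon-stimulated, monocyte and stem cell genes have members and no gene at the top of tg only, and erythroid genes have the opposite pattern; the 4 B cell members share 1 probe.

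Interferon-stimulated genes encode antiviral and signalling proteins that interferons induce. Of 39 such genes with a row, 8 were members (20.5%, background 4.12%) and none was at the top of tg only. They were 8 of the 9 genes of the list in the top 1000 of WT (background 38.7%), the remaining gene being the GTPase gene Irgm1, at the top of both with 163 reads in WT and 72 in tg. The share depended on the top 1000 being used: with lists of 500 and of 2000 it was lower, 4 of 39 (10.3%) in either case. There 2.39% and 7.64% of all autosomal genes were members. Over the list 21 genes were lower in tg by 2-fold or more and 2 at least 2-fold higher, with a median difference of -1.08. The shares over all autosomal genes were 15.6% and 16.5%.

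Among these members, Bst2, whose product tetherin holds budding viruses at the cell surface, had 96 WT reads and 19 tg reads, 2.67-fold (1.62 to 4.63). Irf9, the DNA-binding part of the interferon-activated factor, had 91 WT reads and 23 tg reads, 2.09-fold (1.31 to 3.46). The largest difference in the list's members was that of Xaf1, a pro-apoptotic antagonist of XIAP, with 52 reads in WT and 3 in tg, 9.16-fold (2.97 to 45.9). Ifi27l2a, a gene of the interferon-inducible ISG12 family, had 52 and 5 reads. The other members differed less. Parp9 and Dtx3l, divergent genes whose products form an ADP-ribosylating ubiquitin ligase complex, share a probe with 77 reads in WT and 22 in tg. For Nmi (58 and 22 reads), an interferon-inducible protein gene, and Oasl1 (57 and 20), an inhibitor of Irf7 translation, the interval of the fold included 1. Thus 6 of the 8 had an interval above 1, against 235 of all 387 members.

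A further list of interferon-regulated genes, drawn up after values had been seen, gave 4 members of 35 (11.4%, background 4.12%). They were 4 of the list's 8 genes in the top 1000 of WT (background 38.7%). Lgals9 was at the top of tg only. Slfn2, a Schlafen gene that restrains proliferation of lymphoid and myeloid cells, had 92 WT reads and 5 tg reads (297 and 30.5 scaled reads), 9.73-fold (4.02 to 30.7). Rtp4, a receptor-transporting protein gene, had 57 and 9 reads, 3.35-fold (1.65 to 7.69), and Trex1, the exonuclease that clears cytosolic DNA, had 76 and 16, 2.51-fold (1.45 to 4.61). Herc6, the mouse ligase for the ubiquitin-like protein ISG15, had 61 and 25 reads, and its interval (0.798 to 2.14) included 1. Membership in the interferon lists therefore covers differences from none beyond counting error to more than 9-fold.

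MHC class I molecules present peptides cut by the proteasome. Of 23 genes of antigen presentation with a row, 5 were members (21.7%, background 4.12%). At the top of tg only were 3: the transporter subunit Tap2, Tapbpl and the trimming peptidase Erap1. With top lists of 500 there were 3 members (13%, where 2.39% of all autosomal genes were members). Psmb9, a catalytic subunit of the immunoproteasome, had 122 WT reads and 24 tg reads, 2.69-fold (1.72 to 4.36). The class I heavy chain genes followed, H2-D1 with 87 and 17 reads, H2-Q4 with 67 and 7, H2-K1 with 64 and 20, and the non-classical H2-M3 with 59 and 14. The folds ranged from 1.69 (1.01 to 2.95) for H2-K1 to 5.06 (2.33 to 13.1) for H2-Q4. The interval lay above 1 in 5 of these 5 members, against 235 of all 387. These chains are near-identical in sequence, and how reads were divided among them is not given, so the split between them is uncertain. B2m, their common light chain, was at the top of both, with 142 reads in WT and 29 in tg. Tap1 differed by -0.75 and Tapbp by 2.11 on the deposited log2 scale (tg minus WT), and for Tapbp the interval of the fold over summed reads (0.461 to 1.19) included 1.

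**Figure D4:**
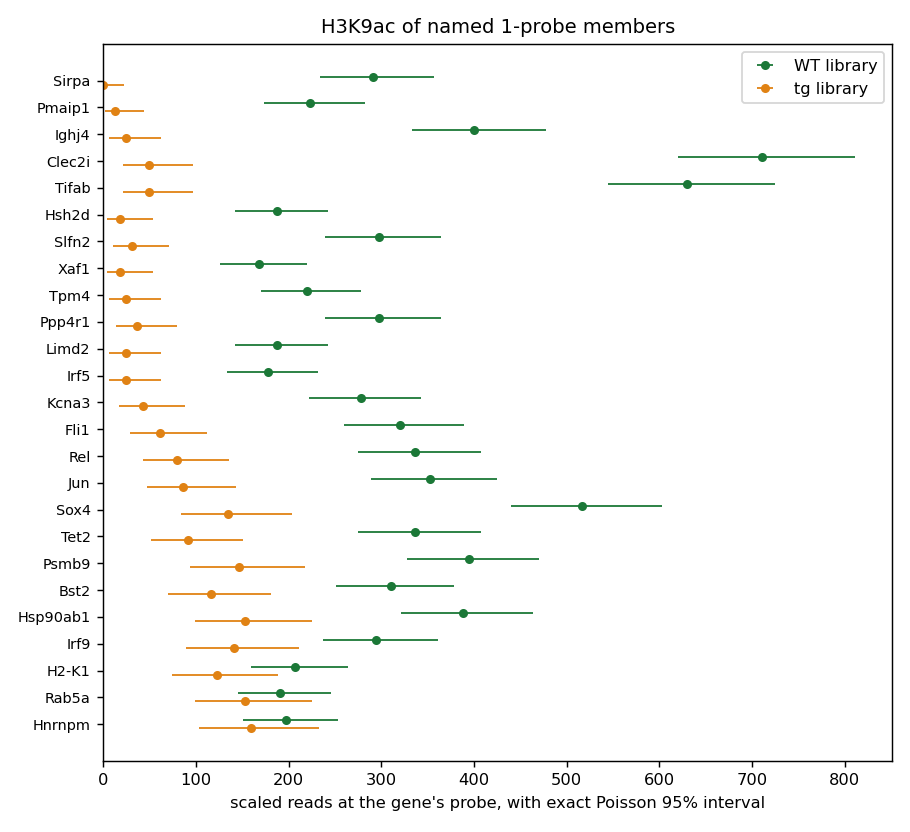
Scaled reads at the probe of named members that have 1 probe, WT in green and tg in orange, with exact Poisson 95% intervals for counting error. Members are ordered by the difference of their deposited values, from Sirpa (90 reads in WT, 0 in tg) to Hnrnpm (61 and 26), whose intervals overlap.

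NF-kB and toll-like receptor signalling gave 3 members of 39 (7.69%, background 4.12%), and 2 genes, Myd88 and Chuk, were at the top of tg only. The interval lay above 1 in 3 of the 3 members, against 235 of all 387. Rel encodes the c-Rel subunit of NF-kB. It had 104 WT reads and 13 tg reads (336 and 79.4 scaled reads), 4.23-fold (2.37 to 8.21). Irf5, which relays toll-like receptor signals to inflammatory genes, had 55 and 4 reads, 7.27-fold (2.68 to 27.6), and Tifa was given above. Over this list 17 genes were lower in tg by 2-fold or more and 3 higher, against 15.6% and 16.5% of all autosomal genes. Tnfrsf1a, the main receptor for tumour necrosis factor, was the 1 member among 32 receptors of cytokines and growth factors, with 83 reads in WT and 7 in tg, 6.27-fold (2.91 to 16.1). Of 45 leukocyte signalling genes 23 were at least 2-fold lower in tg (background 15.6%). Only the adaptor Grb2 (56 and 19 reads, 1.56-fold, 0.912 to 2.78) was a member, and it was the list's only gene in the top 1000 of WT.

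Transcription factors of myeloid and lymphoid cells gave 7 members of 83 (8.43%, background 4.12%), and 3 were at the top of tg only (Myc, Bcl6 and Klf1). The members were 7 of the list's 10 genes in the top 1000 of WT (background 38.7%). Sox4, a factor of progenitors that is a frequent retroviral integration site in mouse leukaemia, had 160 WT reads and 22 tg reads (517 and 134 scaled reads), 3.85-fold (2.45 to 6.31). Fli1, an ETS factor of stem cells and megakaryocytes, had 99 and 10 reads, 5.23-fold (2.73 to 11.3), and Hhex, a homeobox factor of progenitors, had 66 and 13, 2.68-fold (1.47 to 5.30). These 3 were the members among 22 stem and progenitor genes (13.6%, background 4.12%), of which none was at the top of tg only. Hlx, another homeobox gene active in blood progenitors, stood outside the lists and had 125 WT reads and 15 tg reads, 4.41-fold (2.57 to 8.11).

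Hox genes, which NUP98-HOXD13 keeps active, gave 2 neighbouring members of 20 genes of the Hox and Meis list. Hoxb8 had 42 and 158 reads at its probes in WT and 16 and 37 in tg, 2-fold (1.47 to 2.75). Hoxb7 had 42 and 63 reads in WT and 16 and 17 in tg, 1.68-fold (1.13 to 2.57). The lower of the counts was the same for both genes in each library. In the A cluster Hoxa7 was at the top of both, and Hoxc6 in the C cluster was at the top of tg only.

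Leukaemia genes gave 4 members of 42 (9.52%, background 4.12%), with Sox4 among them, and 3 genes were at the top of tg only. The members were 4 of the list's 10 genes in the top 1000 of WT (background 38.7%). Tet2, the dioxygenase that oxidizes methylated cytosine and is often mutated in myeloid disease, had 104 WT reads and 15 tg reads, 3.67-fold (2.12 to 6.78). Cdk6, a cell cycle kinase of progenitors, had 19 and 223 reads at its probes in WT and 3 and 56 in tg, 2.17-fold (1.63 to 2.93). For Asxl2, a Polycomb-associated gene, the interval of the fold included 1 (64 and 25 reads, 0.840 to 2.24). Of 73 chromatin modifiers 8 were members (11.0%, background 4.12%), namely Tet2, Kdm3b, Asxl2, Eed, Mta2, Bap1, Mbd3 and Rnf2, and 4 were at the top of tg only. Among these 8 members 3 had an interval above 1: Tet2, the H3K9 demethylase Kdm3b (84 and 26 reads, 1.71-fold, 1.09 to 2.76) and the deacetylase complex subunit Mbd3 (55 and 13, 2.24-fold, 1.21 to 4.46). The list's share of members among its 19 genes in the WT top 1000 was thus close to the 38.7% of all genes there.

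Immediate-early genes are switched on within minutes by growth factors or stress. A list of immediate-early and other stress-induced genes, drawn up after values had been seen, gave 11 members of 53 (20.8%, background 4.12%). They were 11 of the list's 16 genes in the top 1000 of WT (background 38.7%). The list had 3 genes at the top of tg only (Ppp1r15a, Myc and Pim1). Among the members were Jun, Tiparp, Cited2, Slc38a2, Dusp1, Btg1, Pmaip1, Btg2, Junb and Srf. Jun, an AP-1 subunit, had 109 WT reads and 14 tg reads, 4.12-fold (2.35 to 7.78). Tiparp, a target of the aryl hydrocarbon receptor, had 82 and 10 reads, 4.34-fold (2.24 to 9.38). Dusp1, the phosphatase that inactivates stress kinases, had 74 and 25 reads, and its interval (0.983 to 2.57) included 1, as did those of Btg2, Junb and Srf. The interval lay above 1 in 7 of these 11 members, against 235 of all 387. At least 2-fold lower in tg were 4 of the 11, against 167 of the 387. Both counts follow in part from the rule, so they do not set the list apart from the other members.

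The remaining member of that list with a very large difference was Pmaip1, which encodes the BH3-only protein NOXA. It had 69 WT reads and 2 tg reads, 18.2-fold with a wide interval (4.86 to 154). It was the 1 member among 27 apoptosis and survival genes. Xaf1 and Pmaip1, both promoters of apoptosis, stood among the 19 members at least 8-fold lower in tg.

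Heat-shock proteins and chaperones, also listed after values had been seen, gave 7 members of 61 (11.5%, background 4.12%), and 3 genes were at the top of tg only. Hsp90ab1, the constitutive cytosolic HSP90, had 120 WT reads and 25 tg reads, 2.54-fold (1.64 to 4.08). Hspd1, the mitochondrial chaperonin, had 106 and 23 reads, 2.44-fold (1.54 to 4.01), and the co-chaperone Dnajb9 of the endoplasmic reticulum had 62 and 10, 3.28-fold (1.67 to 7.17). Dnaja1 (89 and 25 reads), Hspa8 (67 and 18) and Dnajb1 (53 and 13) had folds of 1.88 to 2.16, and the chaperonin subunit Cct7 (60 and 22) had an interval that included 1. Hsp90ab1 and Hspa8 have processed pseudogene copies, so their counts depend on how reads with several matches were treated, which is not given.

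Several members shape the actin cytoskeleton of migrating and engulfing cells. Actg1, cytoplasmic gamma actin, had 131 WT reads and 14 tg reads (423 and 85.5 scaled reads), 4.95-fold (2.85 to 9.30). Cdc42, a regulator of cell polarity, had 79 and 23 reads, 1.82-fold (1.13 to 3.03), and Dock8, its exchange factor in leukocytes, had 40 and 115 reads at its probes in WT and 4 and 48 in tg, 1.58-fold (1.14 to 2.20). Arpc5, a subunit of the actin-nucleating ARP2/3 complex, had an interval that included 1 (52 and 23 reads). The tropomyosin gene Tpm4, outside the lists, had 68 and 4 reads, 8.99-fold (3.35 to 33.9).

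Several members with large differences encode surface and signalling proteins of leukocytes and stood on no list. Kcna3, a voltage-gated potassium channel of lymphocytes and macrophages, had 86 WT reads and 7 tg reads, 6.50-fold (3.02 to 16.6). Hsh2d, an adaptor with an SH2 domain found in blood cells, had 58 and 3 reads, 10.2-fold (3.33 to 51.0), and Limd2, a LIM domain gene, had 58 and 4. Each of these was in the lower part of the tg ranking, at rank 6675 or below.

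Other highly ranked members belong to general cell functions. Parp8, a mono-ADP-ribosyltransferase gene, had 135 WT reads and 11 tg reads, 6.49-fold (3.51 to 13.3), and Anp32a, a histone-binding acidic phosphoprotein gene, had 116 and 10, 6.13-fold (3.22 to 13.1). Sgk3, a kinase of endosomes, had 114 and 13 reads, 4.64-fold (2.61 to 8.97), and Atp2b1, the plasma membrane calcium pump, had 104 and 15. Smaller folds, of 2.36 to 2.68, were found for the nucleoporin Ranbp2 (132 and 26 reads), the RNA-binding protein Cpeb2 (116 and 26), the GTPase Arf4 (104 and 23) and the atypical MAP kinase Mapk6 (104 and 22). Ppp4r1, a regulatory subunit of protein phosphatase 4, stood apart with 92 reads in WT and 6 in tg, 8.11-fold (3.59 to 22.7). Slc38a1, a glutamine transporter gene, had 40 and 77 reads at its probes in WT and 2 and 8 in tg, 6.19-fold (3.25 to 13.2), and the histone variant gene H2afy had 46 and 126 in WT and 3 and 13 in tg, 5.68-fold (3.40 to 10.2).

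Families of general cell function varied in their share of members around the background of 4.12%. Cytosolic ribosomal proteins gave 3 of 78 (3.85%), which were 3 of the list's 15 genes in the top 1000 of WT, and none of these had an interval above 1. Of 65 histone genes 1 was a member and 17 were in the top 1000 of WT, and of 59 spliceosome genes the numbers were 3 (5.08%) and 21. With top lists of 500 and of 2000 spliceosome genes gave 6 members each, and histone genes gave 2 and 3. The list of housekeeping genes gave 2 of 20 (10%), Hsp90ab1 and Ywhaz. There was no member among 65 mitochondrial ribosomal proteins, 1 among 76 genes of oxidative phosphorylation and 5 among 217 zinc finger genes of the Zfp, Zkscan and Zscan families. Solute carriers gave 7 of 122 (5.74%), lysosome and endosome genes 3 of 47 (6.38%), proteasome genes 1 of 35 (2.86%) and cell cycle genes 1 of 46 (2.17%). Rab GTPases, listed after values had been seen, gave 5 of 36 (13.9%), of which Rab1 (87 and 21 reads, 2.19-fold, 1.35 to 3.72) differed most. Other families listed after values had been seen gave 12 members of 144 ubiquitin ligases (8.33%), with 10 at the top of tg only, 3 of 28 ubiquitin-conjugating enzymes (10.7%) and 3 of 42 DEAD and DEAH box helicases (7.14%). There were also 3 members among 50 translation initiation factors (6%), 4 among 40 subunits of protein phosphatases (10%) and 2 among 13 dual-specificity phosphatases (15.4%). In all, 117 members stood on at least 1 of the 43 lists and 210 named members on none.

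The base composition of promoters was not used by the rule. Of the members 290 had a promoter in the RefSeq table, and the median window held 25.5 CpG dinucleotides. This was between the 29 of the genes at the top of both and the 22 of all autosomal genes, and near the 24 of the genes at the top of tg only. Members were divided by the size of their difference: 22 of the 120 members at least 2-fold lower in tg (18.3%) had under 10 CpG, against 11 of the other 170 (6.47%), 6.65% of the genes at the top of both and 13.4% of all autosomal genes. Of the 9 members of both interferon lists with a window, 7 had under 10 CpG. These are descriptions of the sequences, neighbours can share a start region, and no test was made.

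**Figure D5:**
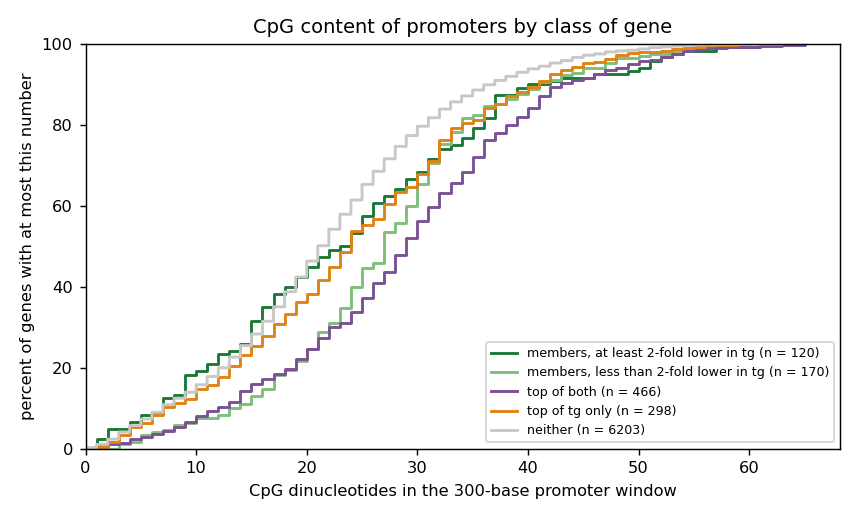
Cumulative percent of genes by the number of CpG dinucleotides in the 300-base promoter window, for members split at a 2-fold difference and for the other classes. Members at least 2-fold lower in tg (dark green) start higher at low CpG counts, with 18.3% under 10, than the other members (light green, 6.47%), which lie near the genes at the top of both.

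The motifs were searched on both strands in the same windows. The NF-kB letters GGGANTTCC were found in 13 of 290 member promoters (4.48%), against 2.47% of all autosomal genes of the table and 1.68% of all 27025 promoters. They occurred in 10 of the 120 members at least 2-fold lower in tg (8.33%) and in 3 of the other 170 (1.76%). The 10 include Tifab, Slfn2, Rel and H2-Q4, but also the divergent neighbours Mocs3 and Dpm1 and Cwc27 and Srek1ip1, which share a probe in each pair and are not independent. The ETS letters CCGGAAGT went the other way, with 5% of the 120 and 14.1% of the 170, as did the CRE letters, with 3.33% and 8.24%. The PU.1 letters GAGGAAGT, which share their last 6 letters with the ETS motif, were in 3.45% of members and 3.10% of all autosomal genes, and the interferon response letters in 2.41% and 3.10%. Of the 9 windows of interferon list members, only that of Bst2 held the latter, which says only that these letters are not in the other 8 windows. The GATA letters AGATAA were in 4.83% of members and 5.86% of all autosomal genes. For the E-box, searched as CAGCTG, the shares were 11.4% and 13.5%. RUNX, with the letters TGTGGTT, stood at 1.72% of members and 3.29% of all. AP-1 was searched as TGANTCA and found in 4.83% and 4.51%. The C/EBP letters TTGCNNAA were in 6.90% of members and 7.73% of all, and the stricter TTGCGCAA, each match of which is also a match of the looser letters, in 0% and 0.303%.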

How the data were processed

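The authors deposited 1 table with a row per gene, holding per library a mean of log2 values over the gene's probes, a score for their spread (the standard deviation over probes) and the count of probes. The submitters' processing notes name BWA, SAMtools, FastQC and CASAVA 1.8.2, with mm10 and GRCm38. Probe placement, handling of duplicate reads and the software behind this table were steps not given in the sources used here. Columns were matched by library code to the 2 H3K9ac libraries.

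Reads were recovered with Python 3.11.15 (numpy 2.4.6, pandas 2.3.3, scipy 1.17.1): 100% of the linear values of 7423 1-probe genes were whole reads to within 0.01 once divided by 1 step per library, with 0 reads entered as 0.9. Reads were recovered for 9276 autosomal genes (98.7%), and the script was tested on simulated data. Folds use reads summed over probes, with Clopper-Pearson intervals, and can differ from the deposited log2 difference in genes with 2 probes. The "at least" fold uses 3 reads in place of 0.

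Named are the 20 members highest in WT, the 15 with the lowest difference, up to 5 per gene list and the 3 genes on each side of either threshold, passing over unnamed models; other names were chosen after their values were seen. Members and lists (33, plus 10 added after values were seen) were chosen with earlier results of these data known. A symbol in several rows was counted once per list. Alternatives were other top list sizes, summed reads, 1-probe genes, neighbours counted once and a minimum of 20 reads. The IgG libraries were not analysed here. Promoters are from RefSeq, GRCm38.p6, matched by symbol. Some genes that this rule names, and the results of 1 list, are not reported here.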

Additional observations from a re-analysis of the deposited data

How the results depend on the processing

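Of 52 alternatives, 33 stayed close to the value reported (for counts and shares, within 1.5 times), 18 moved and 1 reversed. Some of the 33 could hardly move. A minimum of 20 reads removes no member, since all had at least 52 WT reads. Setting 0 reads at 3 reads changes only 1 member. The number of members follows the list size: 225 genes with top lists of 500 and 718 with top lists of 2000, of which 131 and 193 were among the 387. The share of members among interferon-stimulated genes was 10.3% with lists of 500 and of 2000 and 33.3% among 1-probe genes. It was 13% for antigen presentation with lists of 500 and 29.4% for monocyte genes with lists of 2000, and erythroid genes gave 0% in every alternative run. The background share was 2.39% with lists of 500 and 7.64% with lists of 2000. The share of the immediate-early and stress-induced list was 33.3% among 1-probe genes. Ranking by reads summed over probes gave 435 genes, of which only 173 were among the 387, since genes with several probes then rank higher. Using 1-probe genes only gave 386 (361 shared), counting neighbours with the same values once gave 402 (280 shared), and a minimum of 20 reads gave 387 (387 shared). The median CpG count of member promoters was 3.5 higher than that of all autosomal genes and -3.5 relative to the genes at the top of both libraries, a reversal that comes from the comparison chosen. No paired analysis was possible because there was 1 library per genotype, and no replicate could be left out. The tg library has the lower derived total, and 19 members rest on at most 5 tg reads.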
